A study of Mus musculus with 11 samples.

Results

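The 9 genes described here carry the signal from tumor necrosis factor (TNF) to the transcription factor NF-kB, together with the inhibitor Tnfaip3. They were chosen by symbol (TNFAIP3, NFKB1, RELA, RELB, BIRC2, TRAF2, RIPK1, TRADD and TNF), and 9 of 9 were found among the 248 genes measured. RNA was taken from corneas of female C57BL/6 mice after 5 days of desiccating stress, a model of dry eye disease in which mice stay in a dry, drafty environment and drink scopolamine, which inhibits tear secretion. All mice were stressed and received repeated daily eye drops. The drops held vehicle, which was buffered saline (3 samples), the pan-Trk agonist pan at 10 uM (4 samples) or the TrkC agonist C1 at 10 uM (4 samples), and no unstressed group was analysed here. Trk receptors are the tyrosine kinase receptors of the neurotrophins.

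Each gene was counted by 1 probe of the NanoString mouse Inflammation panel, which counts RNA molecules without amplification. The values are log2 normalized counts, so a log2 fold change is a difference of mean log2 values, and values of different genes cannot be ranked because probes differ. Total counts over the panel ranged from 91955 to 133098 in vehicle samples, from 165828 to 525997 in C1 samples, and from 64156 to 101351 in pan 1 to pan 3, whereas pan 4 had 646446. An age label gives 3 months for all 11 samples, but a second age label reads 22 to 24 months for the 4 C1 samples and pan 4, and 2 to 3 months for pan 1 to pan 3 and vehicle. The methods of the study describe mice some weeks old, far below the older label. In C1 against vehicle, treatment, second age label and total count therefore cannot be told apart. The labels name corneal epithelium, which could not be checked because no keratin is on the panel. They do not say whether a sample pools animals, so p-values measure the spread between these samples, which may be technical.

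TNF binds its receptor and gathers Tradd, Ripk1, Traf2 and the ubiquitin ligase cIAP1 (Birc2) on the inner side of the membrane. Ubiquitin chains built there activate the IKK kinases, which release NF-kB dimers of p65 (Rela) and p50 (from Nfkb1) into the nucleus, while RelB (Relb) is a subunit of the alternative branch. Tnfaip3 encodes A20, a ubiquitin-editing enzyme that NF-kB induces and that in turn dampens the pathway. The study asked which inflammation genes the agonists change in the stressed cornea, and each treatment was compared with vehicle and with the other.

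Tnfaip3 (TNFAIP3, gene ID 21929), the inhibitor, was higher with pan than with vehicle. Its log2 normalized counts were 8.43, 8.32 and 8.09 in the vehicle samples and 10.46, 10.20, 10.16 and 9.74 in pan 1 to pan 4. The groups did not overlap, and the lowest pan value exceeded the highest vehicle value by 1.31. On the linear scale this was a mean of 313 normalized counts in the vehicle group (SD 36.3, n = 3) and of 1145 in the pan group (SD 226, n = 4). Tnfaip3 rose by a log2 fold change of 1.86, which is 3.62-fold (95% interval of the log2 value 1.29 to 2.42), at an adjusted p of 0.00846 in limma. The two-sided exact permutation test over the 35 splits of 3 and 4 samples gave p = 0.0571, the smallest it allows. Without vehicle 2 or vehicle 3 the difference was 1.88 or 1.76 and its adjusted p was 0.0566 or 0.0536. The study singled out Tnfaip3 on these samples, so this call is not independent evidence of its direction. In bulk corneal RNA, more cells that express a gene and more RNA per cell cannot be told apart.

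These levels of Tnfaip3 rested on 139 to 172 probe counts in the vehicle samples and on 395 to 2715 in the pan samples. The 95% Poisson intervals, which cover counting error only, reached up to 399.8 normalized counts in the vehicle samples and began at 823 or higher in the pan samples. Counting error alone therefore left the pan and vehicle samples apart.

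With C1, Tnfaip3 lay between the other groups and varied more. Its log2 values were 9.19, 8.62, 8.59 and 10.14 in C1 1 to C1 4, or 624 ± 350 normalized counts (SD, n = 4). C1 4 fell inside the pan range, whereas C1 2 and C1 3 lay closest to vehicle. The lowest C1 value exceeded the highest vehicle value by 0.16, and the Poisson intervals of C1 2 (363 to 429 normalized counts) and of C1 3 (358 to 414) overlapped that of vehicle 1 (295 to 399.8). The log2 fold change over vehicle of 0.86 (95% interval -0.06 to 1.78) did not pass the threshold, with an adjusted p of 0.452 in limma and an exact permutation p of 0.0571. Without C1 4 it was 0.52.

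Compared directly at the same dose and time, Tnfaip3 had a lower mean with C1 than with pan, a log2 difference of -1.002 (95% interval -1.81 to -0.19). This did not pass the adjustment over the panel (adjusted p = 0.260 in limma). Of the 4 C1 samples, 3 lay below the lowest pan value, and the exact permutation p over 70 splits was 0.0571, where 0.0286 is the smallest possible. The order of the mean levels was thus pan, C1 and vehicle, and neither the step from pan to C1 nor that from C1 to vehicle passed the test.

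**Figure D1:**
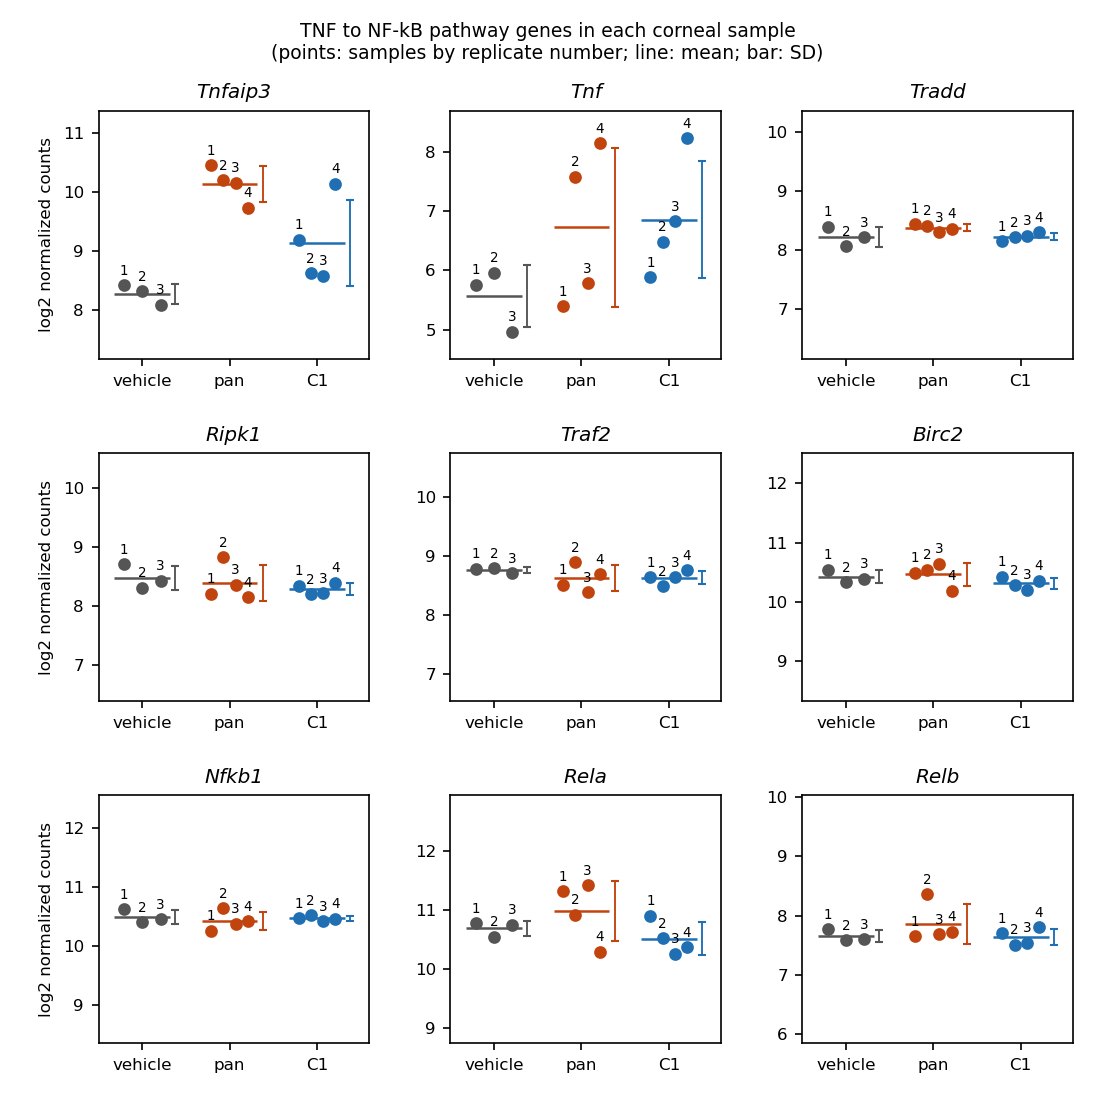
Log2 normalized counts of the 9 genes in each cornea sample, 1 panel per gene, with vehicle (n = 3), pan (n = 4) and C1 (n = 4) on the x axis. Numbers beside the points are replicate numbers, lines are group means and bars are SDs. All pan values of Tnfaip3 lie between 9.74 and 10.46, above the vehicle values of 8.09 to 8.43, whereas the other genes overlap between pan and vehicle.

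The promoter of Tnfaip3 is shown because it and Cxcl1, a chemokine described below, were the 2 panel genes called higher with pan, and both are known targets of NF-kB. The sequences are the 250 bases before the RefSeq transcription start (GRCm38.p6), written along the gene's strand, with matches to the kappaB motif, searched on both strands, in capitals. The Tnfaip3 window lies at chr10:19015411-19015660 on the minus strand, and that of Cxcl1 at chr5:90890995-90891244 on the plus strand.
Tnfaip3: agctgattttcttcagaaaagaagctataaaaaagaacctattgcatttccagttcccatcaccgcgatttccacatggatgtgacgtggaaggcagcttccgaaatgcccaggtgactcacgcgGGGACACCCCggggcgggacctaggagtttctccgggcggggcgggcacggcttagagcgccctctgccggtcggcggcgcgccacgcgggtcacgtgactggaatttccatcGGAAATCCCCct
Cxcl1: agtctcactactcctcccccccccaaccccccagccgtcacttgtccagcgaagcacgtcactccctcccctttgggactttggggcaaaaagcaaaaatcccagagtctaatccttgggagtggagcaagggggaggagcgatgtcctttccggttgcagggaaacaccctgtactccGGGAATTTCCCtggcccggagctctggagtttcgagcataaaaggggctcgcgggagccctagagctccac
In Tnfaip3 the matches begin 125 and 12 bases before the start, the first of them on both strands. In Cxcl1 a pair of overlapping matches begins 71 and 70 bases before it. A second annotated start of Tnfaip3 (chr10:19011964-19012213) had no match in its window. Of the 9 members, 6 had a window in the table, and among these only Tnfaip3 held a match. Matches were present for 17.3% of the 185 panel genes with a window and for 8.23% of 27025 genes, and no match in Rela, Birc2, Traf2, Ripk1 or Tnf says only that the motif is not in these bases.

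The ligand Tnf (TNF, gene ID 21926), the cytokine that starts the pathway, varied more between samples than between groups. Log2 values were 5.76, 5.96 and 4.97 with vehicle, and 5.40, 7.59, 5.78 and 8.15 in pan 1 to pan 4. In C1 1 to C1 4 they were 5.89, 6.49, 6.83 and 8.24. Pan 1, pan 3 and C1 1 lay within the vehicle range, and the other treated samples lay above it. Tnf was close to the counting limit in the shallower samples, with 19 to 27 probe counts with vehicle and 13 in pan 1, where its 95% Poisson interval was 22.5 to 72.2 normalized counts.

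Mean levels of Tnf were 49.2 ± 16.1 normalized counts (SD, n = 3) with vehicle, 144 ± 116 (SD, n = 4) in the pan group and 141 ± 109 (SD, n = 4) in the C1 group. The log2 fold changes over vehicle were 1.17 with pan (95% interval -0.42 to 2.76, adjusted p = 0.542 in limma) and 1.30 with C1 (95% interval -0.02 to 2.62, adjusted p = 0.452 in limma). Neither passed the threshold. Between C1 and pan the difference was 0.13, with an interval from -1.47 to 1.73 that leaves the order of the compounds undetermined.

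The adaptors Tradd and Ripk1, which bind at the TNF receptor and pass the signal on, overlapped between pan and vehicle. Tradd (TRADD, gene ID 71609) had log2 values of 8.39, 8.06 and 8.21 with vehicle, 8.44, 8.41, 8.30 and 8.36 with pan, and 8.15, 8.21, 8.24 and 8.30 with C1. Its log2 fold changes were 0.16 with pan and 0.002 with C1, and the highest C1 value and the lowest pan value were both 8.30. Ripk1 (RIPK1, gene ID 19766), a kinase at the branch between survival and cell death, had 8.70, 8.30 and 8.43 with vehicle, 8.21, 8.83, 8.36 and 8.14 with pan, and 8.34, 8.20, 8.21 and 8.39 with C1. The log2 fold changes of Ripk1 were -0.09 with pan and -0.19 with C1, and pan 2 was the highest and pan 4 the lowest of all samples.

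The genes of the ubiquitin ligase module had similarly narrow ranges. Traf2 (TRAF2, gene ID 22030), the adaptor that recruits cIAP proteins, had log2 values of 8.79, 8.80 and 8.71 with vehicle, 8.52, 8.90, 8.39 and 8.70 with pan, and 8.65, 8.50, 8.65 and 8.76 with C1. Of the 4 samples of each treatment, 3 lay below the lowest vehicle value, and the log2 fold changes were -0.14 with pan and -0.13 with C1. Birc2 (BIRC2, gene ID 11797), which encodes cIAP1, had 10.54, 10.33 and 10.39 with vehicle, 10.49, 10.54, 10.64 and 10.19 with pan, and 10.42, 10.28, 10.20 and 10.35 with C1. Its log2 fold changes were 0.04 and -0.11. Against vehicle none of these 4 genes passed the threshold in limma, the lowest adjusted p being 0.720 for Ripk1 with C1.

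Among the NF-kB subunits, Nfkb1 (NFKB1, gene ID 18033), the precursor of p50, had the smallest SD of the 9 genes over all samples. Its log2 values were 10.63, 10.40 and 10.45 with vehicle, 10.26, 10.64, 10.38 and 10.43 with pan, and 10.48, 10.52, 10.42 and 10.46 with C1. The highest of all 11 samples was 1.30 times the lowest. The 95% intervals of its log2 fold changes were -0.55 to 0.42 with pan and -0.31 to 0.26 with C1, around values of -0.07 and -0.02.

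Rela (RELA, gene ID 19697), which encodes p65, varied more. Log2 values were 10.78, 10.56 and 10.76 with vehicle, 11.32, 10.93, 11.43 and 10.30 with pan, and 10.91, 10.53, 10.27 and 10.38 with C1. Pan 1 to pan 3 lay above all vehicle samples and pan 4 below them, while 3 of the 4 C1 samples lay below the lowest vehicle value. The log2 fold changes were 0.30 with pan (95% interval -0.42 to 1.01) and -0.18 with C1 (95% interval -0.62 to 0.26). The difference of C1 from pan was -0.47 (95% interval -1.12 to 0.17, adjusted p = 0.452 in limma).

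Relb (RELB, gene ID 19698), the subunit of the alternative branch, had log2 values of 7.77, 7.58 and 7.60 with vehicle, 7.65, 8.36, 7.68 and 7.72 with pan, and 7.70, 7.50, 7.54 and 7.80 with C1. Only pan 2 stood apart, and the other pan samples lay within the vehicle range. Its log2 fold changes were 0.21 with pan (95% interval -0.38 to 0.79) and -0.01 with C1.

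**Figure D2:**
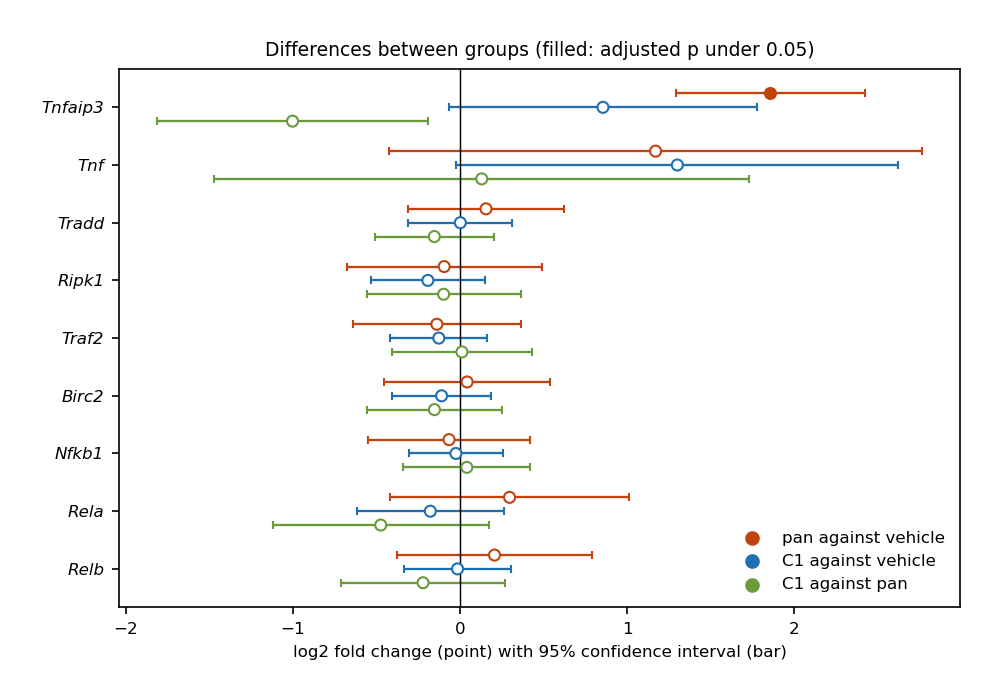
Log2 fold change (x axis, point) with its 95% interval (bar) for each of the 9 genes, for pan against vehicle, C1 against vehicle and C1 against pan. Filled points passed an adjusted p of 0.05. The point of Tnfaip3 with pan, at 1.86, is the only filled one, and the intervals of Tnf are the widest.

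Over the 9 genes, 1 passed the threshold with pan (Tnfaip3), where 2.02% of all 248 genes passed. With C1, 0 of the 9 passed, as did 0% of the panel in limma, where 26 of the 248 genes and 0 of the 9 had an unadjusted p under 0.05. Between C1 and pan 0 of the 9 passed, against 0.403% of the panel. All pan samples lay above all vehicle samples for 1 of the 9, again Tnfaip3, and for 2.42% of the panel. For C1 over vehicle this also held for Tnfaip3 alone of the 9, and for 6.05% of the panel. The comparisons with vehicle share the 3 vehicle samples. For the 9 genes the median log2 fold change was 0.16 for pan and -0.02 for C1 over vehicle, beside -0.20 and -0.02 over all genes, and it was -0.15 for C1 against pan beside 0.23. Over the panel genes whose log2 values averaged 5 or more, which include all 9, the median was -0.07 for pan and 0.02 for C1 over vehicle. For C1 against pan it was 0.13. The differences of the 9 genes are better read against these medians, which leave out genes near the counting limit.

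The 9 genes fell into a variable and an even set. Over all 11 samples, the SD of the log2 values was 1.11 for Tnf, the first in rank of the 131 genes whose log2 values averaged 5 or more, and 0.89 for Tnfaip3, the third in rank. Rela followed with 0.39, and the other 6 genes lay below the median SD of 0.30. The highest sample exceeded the lowest 9.65-fold for Tnf, 5.15-fold for Tnfaip3 and 2.24-fold for Rela. For the other genes it ranged from 1.30-fold to 1.81-fold.

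Tnf and Tnfaip3, the most variable of the 9, did not follow each other within the pan samples. Among the pan samples Tnfaip3 was highest in pan 1, where Tnf was lowest, and lowest in pan 4, where Tnf was highest. With C1, both were highest in C1 4, while from C1 1 to C1 3 Tnfaip3 fell and Tnf rose. Tnf ascended in the order of the total counts within the pan samples and within the C1 samples, though not within the vehicle samples, and 4.03% of the panel genes (10 of 248) did so in both treated groups. Tnfaip3 did not. The part of total count in the spread of Tnf was not tested.

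**Figure D3:**
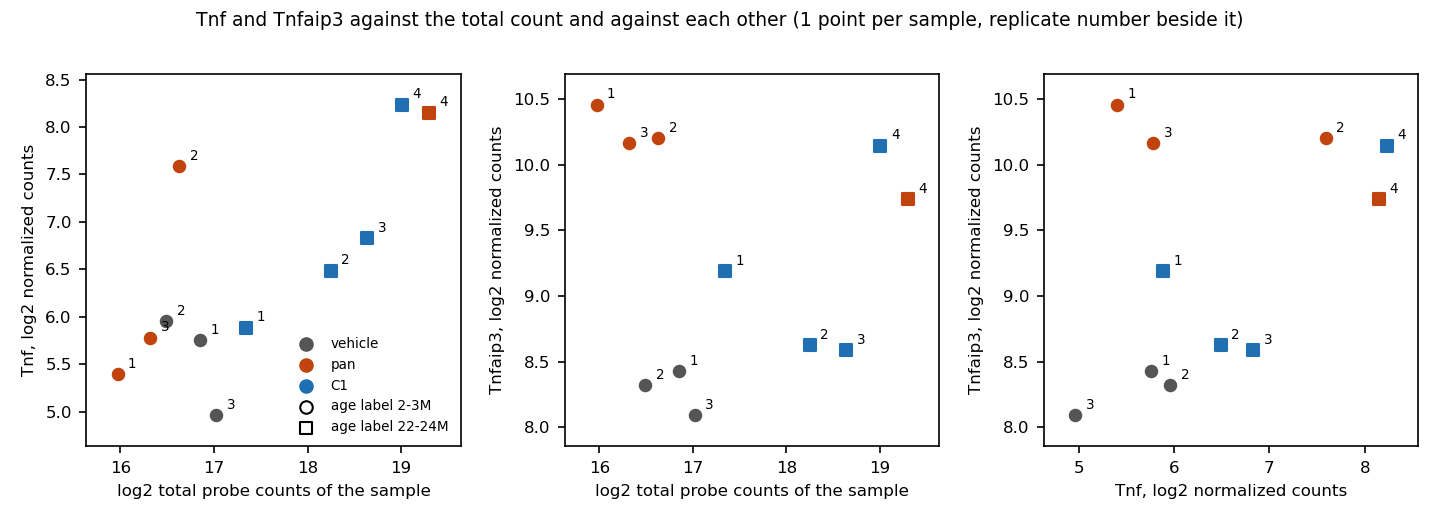
Each point is 1 sample, coloured by group, with its replicate number beside it and its shape giving the second age label. The panels show Tnf against the log2 total probe count, Tnfaip3 against the log2 total probe count, and Tnfaip3 against Tnf, all values being log2 normalized counts. Tnf is highest in C1 4 and pan 4, the samples with the highest totals, and Tnfaip3 is highest in pan 1, which has the lowest total.

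Ratios of probe counts within a sample do not depend on the housekeeping factor. Tnfaip3 gave 0.195 to 0.236 counts per Nfkb1 count in the vehicle samples and 0.621 to 1.14 in the pan samples. In C1 1 to C1 4 this ratio was 0.410, 0.269, 0.281 and 0.801. As a share of all probe counts, Tnfaip3 took 0.125% to 0.151% with vehicle, 0.420% to 0.675% with pan and 0.181% to 0.498% with C1. The separation of pan and of C1 from vehicle in Tnfaip3 was thus present before normalization, and C1 4 again lay among the pan samples.

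Within the second age label, pan and vehicle could be compared in the samples labelled 2 to 3 months. Pan 1 to pan 3 exceeded vehicle by 1.99 for Tnfaip3, by 0.70 for Tnf and by 0.53 for Rela on the log2 scale. Among the samples labelled 22 to 24 months, pan 4 was the only pan sample. There the C1 mean minus pan 4 was -0.60 for Tnfaip3, with 1 of 4 C1 samples above pan 4, and -1.29 for Tnf. For Rela the C1 mean was 0.22 above pan 4, whereas over all samples it was 0.47 below the pan mean. With the label as a covariate in a fit of all samples, Tnfaip3 with pan was again at 1.99 (adjusted p = 0.0294 in limma). No vehicle sample has the older label, so this value is that of pan 1 to pan 3 against vehicle. It is no further test of age, and the part of age in these differences was not tested.

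**Figure D4:**
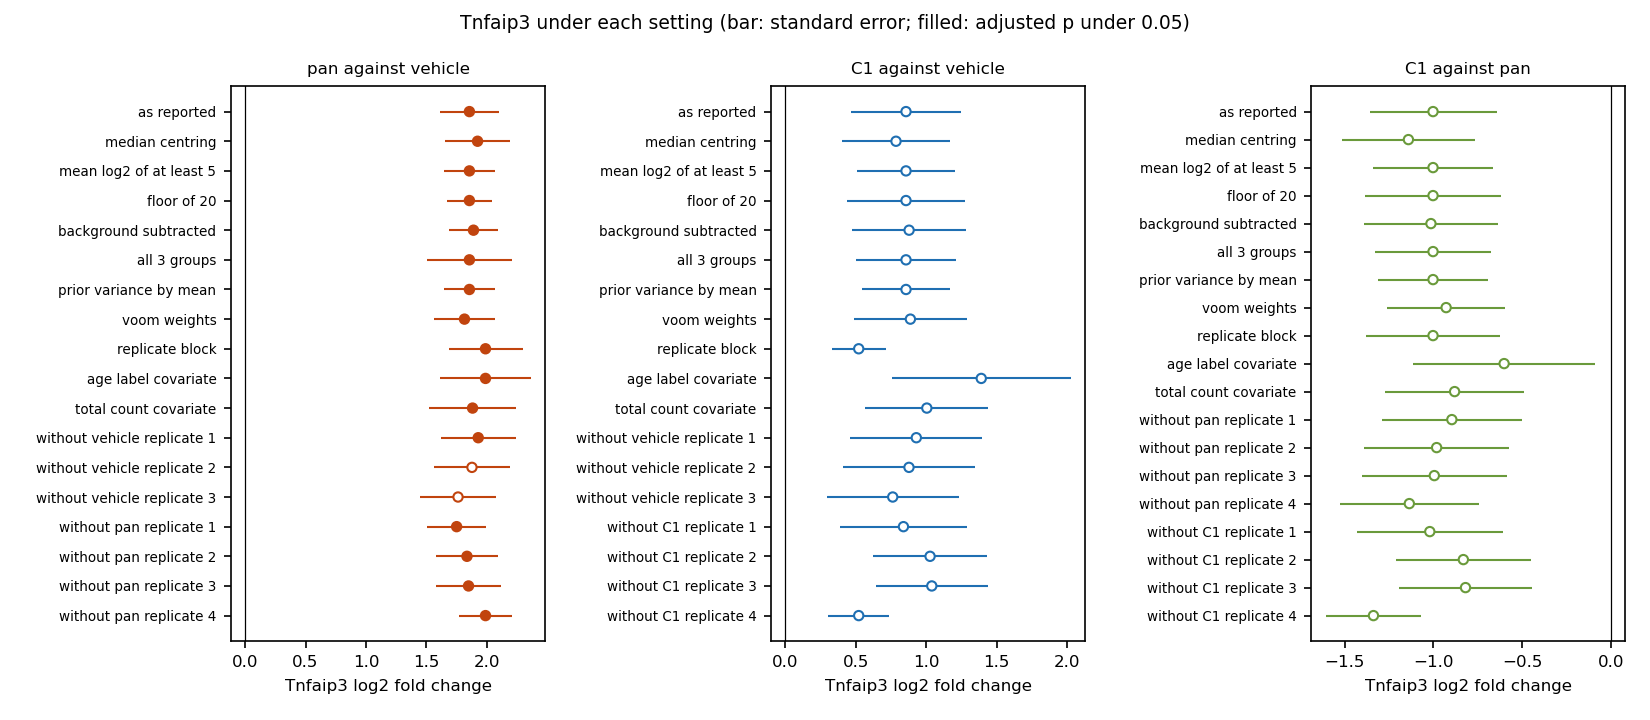
Log2 fold change of Tnfaip3 (x axis) as reported and under each alternative setting, in 3 panels for pan against vehicle, C1 against vehicle and C1 against pan. Bars are standard errors and filled points passed an adjusted p of 0.05. With pan the values stay between 1.75 and 1.99 and are open without vehicle 2 or vehicle 3. No point is filled in the other panels.

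The other panel genes of the pathway were described by lists. Of 6 TNF superfamily ligands and receptors other than Tnf, 0 passed the threshold in limma with either treatment. With each, 2 had an unadjusted p under 0.05, beside 31 of the 248 panel genes with pan and 26 with C1. With pan their median log2 fold change was -0.43 and with C1 it was 0.16, beside -0.20 and -0.02 over all genes. The genes at an unadjusted p under 0.05 were Tnfsf14, which was lower, and Cd40lg, which was higher, in both comparisons. Tnfsf14, the ligand LIGHT, had 10.0, 6.91 and 9.87 normalized counts with vehicle and 3.25, 7.32, 2.90 and 2.83 with pan (adjusted p = 0.210), on 1 to 9 probe counts. Its log2 fold change with pan was -1.24, and without pan 2 it was -1.56 (adjusted p = 0.0360 in limma). Cd40lg, the CD40 ligand of T cells, had 6.01, 2.30 and 3.29 normalized counts with vehicle, on 1 to 3 probe counts, and 6.88, 6.31, 6.71 and 7.34 with C1 (adjusted p = 0.418). Both lay at or near the counting limit in the samples with low totals.

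Receptors and adaptors outside the TNF receptor that also feed NF-kB formed a list of 11 genes. With each treatment, 0 of these 11 passed in limma and 0 had an unadjusted p under 0.05, beside 31 (pan) and 26 (C1) of the 248 panel genes. The medians were -0.05 with pan and 0.04 with C1. Nod2, an intracellular sensor of bacterial cell walls, had a log2 fold change of 1.13 with pan (adjusted p = 0.460) on 3 to 10 probe counts in the vehicle samples. Under alternative settings this value ranged from 0.37 to 2.20, and without 1 sample from 0.55 to 1.66. Tlr2, a receptor of bacterial lipoproteins, had 0.35 with C1 (adjusted p = 0.452).

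For the branch from TNF to the MAP kinases and cell death, 0 of 11 genes passed in limma with either treatment, and the medians were -0.08 with pan and 0.05 with C1. Unadjusted p-values under 0.05 numbered 0 with pan and 1 with C1, beside 31 and 26 of the 248 panel genes. Jun, a subunit of the transcription factor AP-1, had log2 values of 9.95, 9.58 and 9.75 with vehicle, 10.44, 9.95, 10.42 and 9.94 with pan, and 10.62, 10.22, 10.04 and 10.56 with C1. Every C1 value lay above the vehicle values, by at least 0.10. The log2 fold changes of Jun were 0.43 with pan (adjusted p = 0.517) and 0.60 with C1 (adjusted p = 0.370), and neither passed.

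Of 37 known NF-kB target genes outside the 9, 1 was higher with pan and 0 were lower in limma. At an unadjusted p under 0.05 there were 9 of the 37, 3 higher and 6 lower, beside 31 of the 248 panel genes. With C1, 0 passed in limma and 6 had an unadjusted p under 0.05, 3 in each direction, beside 26 of the 248. The medians, -0.21 with pan and 0.03 with C1, lay close to those of all genes. Cxcl1 (gene ID 14825), which attracts neutrophils, had log2 values of 4.001, 3.20 and 4.04 with vehicle, 5.79, 5.61, 5.24 and 5.82 with pan, and 4.55, 4.13, 4.25 and 7.29 with C1. Like Tnfaip3, it did not overlap between pan and vehicle and was highest in C1 4 within its group. With pan it rose by 1.86 on the log2 scale (95% interval 1.19 to 2.54, adjusted p = 0.0181 in limma). The vehicle samples held only 4 to 10 counts of it. The call was lost with background subtraction (adjusted p = 0.210 in limma), when all 3 groups were fitted together (0.217), and with the replicate block (0.0888). It was also lost with the second age label (0.204) or total count (0.161) as covariate, and in 5 of the 7 fits without 1 sample. Its log2 fold change was 1.29 to 3.34 under these and the other settings, and 1.59 to 2.01 without 1 sample.

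**Figure D5:**
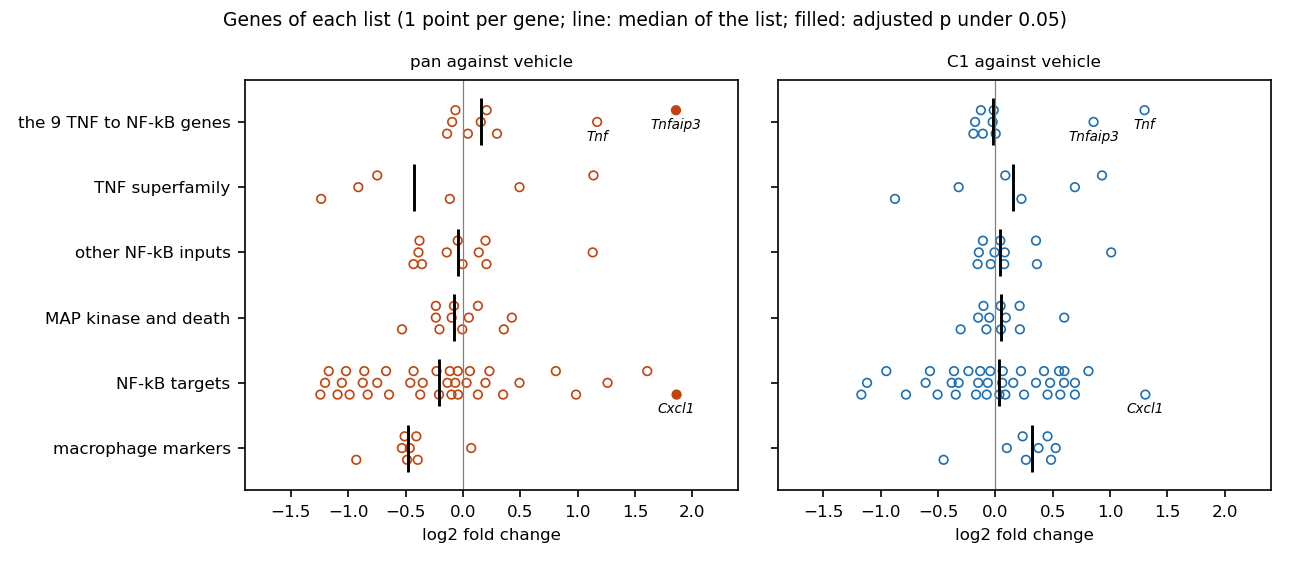
Log2 fold changes against vehicle with pan (left) and with C1 (right), 1 point per gene, for the 9 TNF to NF-kB genes, the 4 lists of related genes and the macrophage markers. Vertical lines are list medians and filled points passed an adjusted p of 0.05. Only Tnfaip3 and Cxcl1 are filled, both with pan and both at 1.86, and the macrophage markers have medians of -0.48 with pan and 0.32 with C1.

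Immune cells also express these genes, so their markers were followed beside them. The summed level of 8 macrophage and myeloid markers was 202 to 311 normalized counts with vehicle, 161 to 216 with pan and 257 to 350 with C1. In C1 against vehicle and in pan against vehicle, 0 of the 8 passed in limma. An unadjusted p under 0.05 was found for 0 of the 8, beside 26 (C1) and 31 (pan) of the 248 panel genes. Trem2 had at most 3 counts in every vehicle sample. C1qa had a log2 fold change of -0.53 with pan (adjusted p = 0.517) and C1qb of 0.45 with C1 (adjusted p = 0.452), both encoding chains of complement C1q made by macrophages. Between C1 and pan 0 of the 8 passed in limma and 3 had an unadjusted p under 0.05, as had 38 of the 248 panel genes, with a median log2 difference of 0.72 beside 0.23 over all genes. The summed marker levels of pan and vehicle overlapped. The part of macrophages in the level of Tnfaip3 was not tested.

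The 2 neutrophil markers, the chemokine receptors Cxcr1 and Cxcr2, summed to 10.0 to 27.7 normalized counts with vehicle, 5.79 to 9.76 with pan and 6.88 to 17.3 with C1. Cxcr1 had 2.00, 18.4 and 18.1 normalized counts with vehicle and 3.25, 4.88, 2.90 and 4.41 with pan. It did not separate the groups because vehicle 1 was the lowest (log2 fold change -1.21, adjusted p = 0.550 in limma). Without vehicle 1 the log2 fold change was -2.28 (adjusted p = 0.0143 in limma), on 1 to 14 probe counts in the pan samples. The 3 T cell markers summed to 13.8 to 24.0 with vehicle, 13.0 to 22.0 with pan and 18.9 to 27.2 with C1. Cd4, the coreceptor of helper T cells, had 16.0, 6.91 and 11.5 normalized counts with vehicle and 3.25, 2.44, 2.90 and 5.66 with pan (adjusted p = 0.0912). Pan 1 to pan 3 held 1 probe count of it each, and in these samples 60 to 85 panel genes had at most 3 counts. The T cell list split, since Cd40lg had a log2 fold change of 1.14 with pan (adjusted p = 0.239) and Il2 of 0.23, beside -1.68 for Cd4. With all samples, none of these markers passed with either treatment in limma. Unadjusted p-values were under 0.05 for 2 of the T cell markers with pan and 1 with C1, beside 31 and 26 of the 248 panel genes. The part of such cells in the levels of Tnfaip3 and Tnf was not tested.

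The genes whose levels across the 11 samples were most like those of Tnfaip3 were found by the mean absolute difference of log2 values, each centred on its vehicle mean, over 130 genes whose log2 values averaged 5 or more. Il1a, an alarmin cytokine of epithelia, was the closest at 0.414, followed by Ptger4, the prostaglandin E2 receptor EP4, at 0.648 and Jun at 0.675. Tnf was at rank 7 with 0.818, and the median over the ranked genes was 1.07. Il1a had log2 values of 8.69, 8.31 and 8.15 with vehicle, 10.40, 9.07, 10.21 and 8.91 with pan, and 9.12, 9.07, 8.56 and 9.05 with C1. It shared with Tnfaip3 a high value in pan 1 and pan 3, but not those of pan 2 and C1 4. Ptger4 differed from Tnfaip3 in its order, since its difference from vehicle was 0.74 with pan and 0.85 with C1 on the log2 scale. Neither Il1a nor Ptger4 passed the threshold in limma in either comparison with vehicle. The study, with another method, reported both as higher with pan and Ptger4 as higher with C1.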

How the data were processed

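RNA of 11 mouse cornea samples was measured with the NanoString nCounter mouse Inflammation panel. The authors deposited log2 normalized counts of 248 genes in 2 tables that share the 3 vehicle samples; probe counts had been divided in ROSALIND by the geometric mean of housekeeping probes, and samples that failed quality control had been left out. The normalized counts were whole multiples of 1 step per sample (tolerance 0.02), which gave the probe counts; no background had been subtracted. The deposited columns of mean level, fold change and p-values are the authors' own comparisons and were not used. No 2 samples were identical (0 pairs).

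Each pair of groups was fitted by limma 3.58.1 (lmFit, eBayes; R 4.3.3) over all 248 genes, without filter or covariate, with Benjamini-Hochberg adjustment and a threshold of 0.05. Tnfaip3 was also tested by two-sided exact permutation (scipy 1.17.1, Python 3.11.15). The fit was tested on simulated data. Named are the 9 members, in each list the called genes or, with none, the gene with the smallest p with each treatment, and the 3 genes most like Tnfaip3. Members and lists were chosen with earlier results of these data known. Promoters came from a RefSeq table (GRCm38.p6).

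Alternatives were median centring, a filter at a mean log2 of 5, a floor of 20 normalized counts, background subtraction, all 3 groups in one fit, a mean-dependent prior variance, voom weights, the replicate number as a block, second age label or log2 total count as covariate, and leaving out each sample. The labels' replicate numbers do not name a shared animal or day. Correlations of same-numbered samples, after subtracting group means, ranged from -0.05 to 0.57. They were not compared with those of differently numbered samples, so they do not settle whether the numbers pair samples. The reported fits were left unpaired.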

Additional observations from a re-analysis of the deposited data

Results flagged for a closer look

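Each of the 21 named genes was examined in the pan and C1 groups for a single sample far from the other 3 by Dixon's criterion. Of these 42 sets of 4 samples, 5 held such a sample, where chance gives about 2.1 (1 in 20). Among the 9 pathway genes, this was Relb, with a log2 value of 8.36 in pan 2 against 7.65 to 7.72 in the other pan samples, on 135 probe counts. Cxcl1 had 7.29 in C1 4 against 4.13 to 4.55 in the other C1 samples, on 362 counts, and Tnfaip3 was also highest in that sample (10.14). Il1a had 8.56 in C1 3, below the 9.05 to 9.12 of the other C1 samples. The values of Tnfsf14 in pan 2 (2.87 against at most 1.70) and of Nod2 in pan 1 (3.70 against 4.86 to 4.99) rested on 3 and 4 probe counts. The causes were not tested.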

How the results depend on the processing

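Tnfaip3 kept its direction in all 52 alternative fits of the 3 comparisons, and the other 8 genes passed the threshold in 0 of 416. With pan, Tnfaip3 passed under all 10 settings that kept every sample (1.82 to 1.99) and in 5 of 7 fits without 1 sample (1.75 to 1.99). These fits are not independent checks. The mean log2 filter, the floor, the fit of all groups and the mean-dependent prior variance left its value at 1.86. The block and the age label gave 1.99, as did leaving out pan 4. No vehicle sample shares the replicate number or the second age label of pan 4. Tnfaip3 did not pass without vehicle 2 (1.88) or vehicle 3 (1.76), so the number of pathway genes called ranged from 0 to 1. The panel count of 5 genes with pan became 1 with the mean log2 filter, 2 with the floor, 3 with background subtraction, 9 with the second age label and 8 with total count as covariate, and 1 to 7 with 1 sample left out. With C1, 0 genes became 4 with the mean log2 filter, 1 with background subtraction and 2 with a mean-dependent prior variance. For C1 against pan, 1 gene became 0 with median centring, all 3 groups in one fit, a mean-dependent prior variance, voom weights, age label or total count, 2 with the floor, and 0 to 1 with 1 sample left out.

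With the replicate block, which pairs samples by number alone, the log2 fold change of Tnfaip3 was 1.99 with pan, 0.52 with C1 and -1.002 for C1 against pan, and its calls did not change. That of Cxcl1 with pan was 1.79 and no longer passed. Of other named genes, Cd4 with pan passed under 4 settings that kept every sample, Il1a with pan under 2 and Ptger4 with C1 under 1. With 1 sample left out, Cxcr1 with pan passed without vehicle 1 and Tnfsf14 with pan without pan 2.

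Directions turned for 42 of the 416 fits of the other 8 genes. Median centring, which moved the panel by 0.14 between C1 and pan, turned Nfkb1 with pan (0.0021), Tradd with C1 (-0.069), and in C1 against pan Nfkb1 (-0.10), Traf2 (-0.13) and Tnf (-0.0085). With the age label as covariate, which rests on pan 4 alone, C1 against vehicle became 0.75 for Rela, 0.16 for Relb, 0.26 for Birc2, 0.13 for Ripk1, -0.59 for Tnf, -0.54 for Tlr2 and -0.082 for C1qb, and C1 against pan became 0.22 for Rela, 0.12 for Birc2, -0.058 for Traf2, 0.14 for Ripk1 and -1.29 for Tnf. With total count, C1 against vehicle became 0.30 for Rela, 0.0065 for Relb, 0.048 for Birc2, -0.021 for Tradd and -0.086 for Tlr2, and C1 against pan became -0.047 for Traf2 and -0.83 for Tnf. Tradd with C1 was -0.024 with the block, and Tnf in C1 against pan was -0.069 with voom weights. Without 1 sample, ranges that cross 0 were -0.015 to 0.14 for Birc2 and -0.24 to 0.018 for Ripk1 with pan, -0.070 to 0.041 for Nfkb1, -0.070 to 0.045 for Relb and -0.078 to 0.088 for Tradd with C1, and in C1 against pan -0.014 to 0.11 for Nfkb1, -0.067 to 0.10 for Traf2, -0.18 to 0.050 for Ripk1 and -0.33 to 0.60 for Tnf. The causes were not tested. The floor gave no value for Tnfsf14, Cxcr1, Cd4 and Cd40lg, which lay at or below it. Counts limit Tnf, Cxcl1 and the T cell and neutrophil markers in the samples with low totals.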
